A study of Mus musculus with 4 samples.

Results

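The 52 genes described here encode proteins of the G2 phase and of mitosis, and were taken by symbol from the 57126 features counted in each of 4 single-cell libraries of mouse cerebral cortex. All 52 were found in the files, and they fall into 8 roles: 8 genes around the entry kinase Cdk1, 2 of mitotic exit, 9 of chromatin and condensation, 3 of the nuclear envelope, 6 of the centromere and kinetochore, 5 of the checkpoint and the passenger complex, 15 of the spindle and its motors, and 4 of cytokinesis. The study placed a wild-type and a Tsku (Tsukushi, TSK in the labels) knockout mouse at embryonic day 14.5 (E14.5) beside a like pair at birth (P0). After trypsin, 15000 cells per sample entered the Asteria bead kit. Neither the strain nor how the allele was made is stated in the sources used here. Each group is 1 animal and 1 library, so no genotype or age comparison below has a replicate, and every interval covers counting error only.

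A dividing cell copies its DNA in S phase, passes through G2 and enters mitosis when the kinase Cdk1 is activated with its cyclin. Transcripts of mitotic genes are made late in the cycle and are held low in cells that have left it. Many of their promoters carry a short element called the cell cycle genes homology region (CHR), often downstream of CCAAT boxes. In the embryonic cortex radial glia divide at the ventricle, intermediate progenitors divide in the subventricular zone, and the neurons made by both no longer divide. Barcodes with Dlx transcripts are of the inhibitory lineage, and those with Olig1 and Olig2 include precursors of oligodendrocytes.

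RefSeq promoter windows on GRCm38.p6 were found for 46 of the 52 genes and span 250 bases before to 50 after a start. The CHR was searched as TTTGAA and the CCAAT box as CCAAT, both on either strand; the motifs can share a base, and each was counted by itself. The CHR was present in the windows of 33 of the 46 genes (71.7%), against 20.2% of 27025 genes with a window, and lay within 50 bases of the start in 56.5% against 5.72%. Of the 40 other genes of G2 and mitosis on a separate list, 33 had a window and 57.6% of those held a CHR, while 31 of 43 S phase genes had one and 19.4% of those did. A pair or more of CCAAT boxes stood in 60.9% of the 46 against 13.3% of all genes. It stood in 45.2% of the 31 S phase genes and 30.3% of the 33 other genes of G2 and mitosis, so it is not particular to mitotic genes. The 150 bases before the start are printed for genes on which later values turn, with matches to both motifs in capitals and the gene's own strand read 5′ to 3′. Cdk1 is at chr10:69352913-69353062 (minus strand), Ube2c at chr2:164769779-164769928 (plus), Cdc20 at chr4:118437344-118437493 (minus), Top2a at chr11:99024190-99024339 (minus), Hmgb2 at chr8:57511693-57511842 (plus), Cks1b at chr3:89418292-89418441 (minus), Ctcf at chr8:105636388-105636537 (plus) and Cbx5 at chr15:103239853-103240002 (minus).
Cdk1: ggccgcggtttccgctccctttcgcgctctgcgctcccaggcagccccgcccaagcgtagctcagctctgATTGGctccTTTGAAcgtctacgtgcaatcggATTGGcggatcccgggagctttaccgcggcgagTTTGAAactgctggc
Ube2c: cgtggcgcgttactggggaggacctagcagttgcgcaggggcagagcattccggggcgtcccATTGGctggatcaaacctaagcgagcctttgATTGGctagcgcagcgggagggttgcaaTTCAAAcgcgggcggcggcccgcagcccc
Cdc20: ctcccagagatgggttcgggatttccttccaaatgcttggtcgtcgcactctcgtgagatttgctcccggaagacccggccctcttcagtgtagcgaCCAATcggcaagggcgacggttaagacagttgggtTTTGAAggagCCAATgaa
Top2a: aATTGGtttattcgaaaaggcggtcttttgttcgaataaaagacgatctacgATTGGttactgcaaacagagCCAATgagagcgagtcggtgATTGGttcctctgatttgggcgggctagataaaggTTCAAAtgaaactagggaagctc
Hmgb2: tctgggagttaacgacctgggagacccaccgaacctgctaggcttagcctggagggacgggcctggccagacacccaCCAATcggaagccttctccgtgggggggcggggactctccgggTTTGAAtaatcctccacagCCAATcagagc
Cks1b: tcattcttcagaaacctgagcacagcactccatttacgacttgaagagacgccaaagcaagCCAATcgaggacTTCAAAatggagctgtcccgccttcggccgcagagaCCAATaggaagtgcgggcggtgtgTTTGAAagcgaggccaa
Ctcf: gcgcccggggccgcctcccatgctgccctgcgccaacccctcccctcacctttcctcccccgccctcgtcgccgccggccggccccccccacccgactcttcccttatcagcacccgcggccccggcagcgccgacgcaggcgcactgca
Cbx5: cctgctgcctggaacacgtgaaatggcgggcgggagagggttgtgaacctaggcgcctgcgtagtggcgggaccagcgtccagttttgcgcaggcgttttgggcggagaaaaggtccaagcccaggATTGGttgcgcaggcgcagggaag
In the first 6 stretches a CHR lies close to the start with CCAAT boxes upstream or beside it. The printed stretch of Ctcf, which encodes a chromatin insulator protein, holds neither motif, and its single CHR lies farther upstream, at position -161 from the start; that of Cbx5, which encodes a heterochromatin protein, holds a single CCAAT box. The stretches do not stand for a rule. A CHR was in the windows of 84.6% of 13 genes with a log2 ratio of rich over poor barcodes (defined below) under 4 over all libraries. It was in those of 66.7% of 33 genes with a log2 ratio of 4 or more. A match describes letters in the window and is not a measured site.

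Barcodes were assigned to 5 kinds by markers that include none of the 52 genes, after every barcode had been thinned to 1500 counts. In the order E14.5 wild type, E14.5 labelled knockout, P0 wild type and P0 knockout, the files held 622, 4119, 1073 and 1456 barcodes, of which 619, 3966, 1046 and 1435 were kept, with median counts of 7354, 2888, 4808 and 5061. The radial glia gate held 59, 548, 171 and 328 barcodes, and all 12 of its markers were detected in each library, summing to 14384, 10606, 29587 and 27705 counts per 1000000 (CPM). At P0 this gate also takes barcodes of astrocytes, which share those markers. Eomes-positive intermediate progenitors numbered 77, 455, 75 and 102, Dlx-positive barcodes 100, 718, 137 and 123, and neuronal barcodes 310, 1812, 494 and 549. The Olig-positive gate held 6 and 19 barcodes at E14.5 and is used only at P0, where it held 101 and 203. Tsku itself had 54, 74, 42 and 0 counts, out of 5607941, 14423600, 6136897 and 8959784 counts in the files. The P0 animals thus differ as labelled, and the E14.5 library labelled knockout does not lack the transcript. The 54 and 74 counts of the E14.5 pair are not at equal depth. That pair also differs in sex, with 3 against 6719 counts of Xist and 496 against 1 of Ddx3y, and sex and label cannot be told apart there. Doublets were not separated, since the caller marked 3, 0, 5 and 14 barcodes, and 3 barcode sequences of each of the first 3 libraries recur in another library.

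Counts of the 52 genes varied widely between barcodes within every progenitor gate. A barcode with 10 or more of its 1500 counts from the 52 genes is called rich and one with under 5 poor. Of radial glia, 54.2% were rich in E14.5 wild type (95% Clopper-Pearson interval 40.8 to 67.3), 67.7% in the E14.5 library labelled knockout (63.6 to 71.6), 25.1% in P0 wild type (18.8 to 32.3) and 22.3% in P0 knockout (17.9 to 27.1). Both P0 intervals lie below both E14.5 intervals. Rich barcodes held 90.2%, 93.8%, 74.4% and 69.7% of all counts of the 52 genes in the radial glia of the 4 libraries. Within rich radial glia the summed level was 23521, 23878, 20124 and 19982 CPM, and within poor ones 2042, 1890.3, 1645 and 1578 CPM. The split was made on these same counts, so rich lies above poor by definition.

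Intermediate progenitors were rich in 14.3% (7.35 to 24.1), 19.8% (16.2 to 23.7), 13.3% (6.58 to 23.2) and 25.5% (17.4 to 35.1) of barcodes, in the same library order. Their intervals overlap one another. Dlx-positive barcodes gave 30%, 32.2%, 32.1% and 32.5%, and those intervals overlap too. Where the Dlx-positive barcodes had a low sum of neuronal markers the shares were 80.0%, 81.5%, 80.0% and 73.7%, from 20, 168, 25 and 19 barcodes. Olig-positive barcodes at P0 were rich in 25.7% of wild type and 20.2% of knockout. Neuronal barcodes, which should not divide, were rich in 0.968%, 2.59%, 1.62% and 0.729%, and their summed level was 2138, 2488, 2270 and 2180 CPM. Cbx5 gave 434, 441, 502 and 447 CPM of that sum, without the steep difference from radial glia that most of the genes show. The part of free RNA in the sum was not tested.

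**Figure D1:**
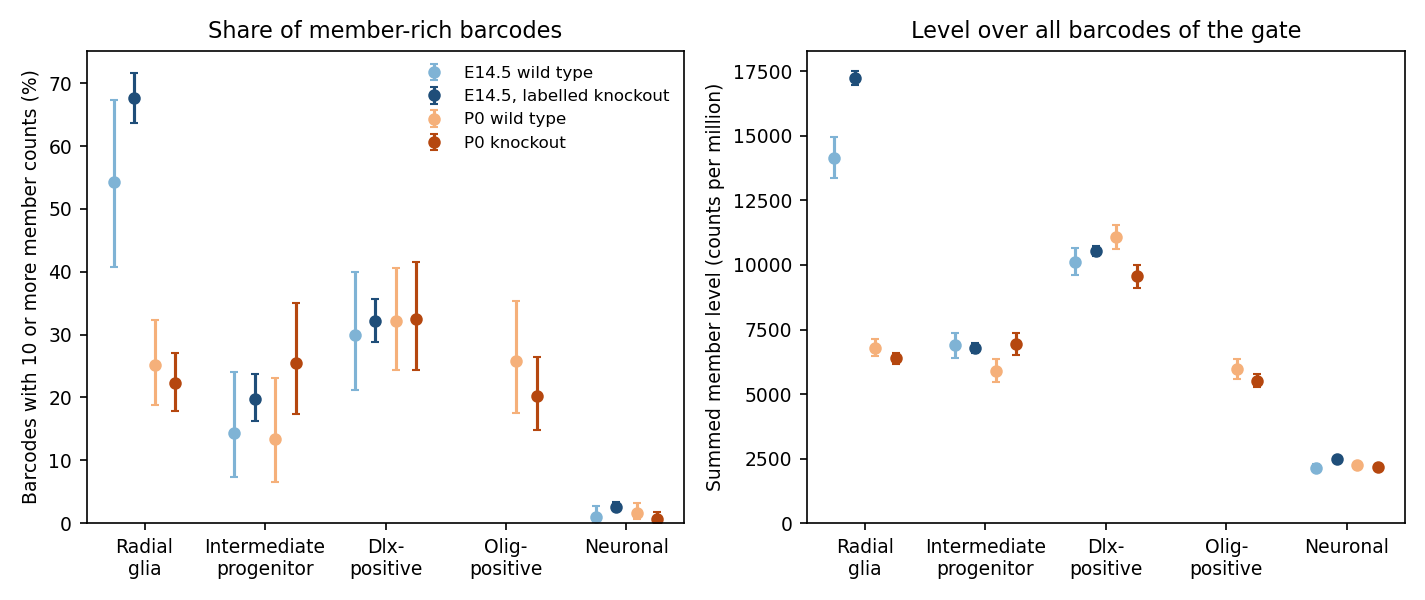
Share of barcodes with 10 or more counts of the 52 genes (left, percent) and their summed level (right, CPM), by gate and library, each barcode thinned to 1500 counts. Points are single libraries and bars are 95% counting intervals; the radial glia of both P0 libraries lie below both E14.5 libraries, and neuronal barcodes stay under 3%.

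The 52 genes did not separate rich from poor barcodes to the same degree. For each gene, radial glia and intermediate progenitors were split by their counts of the other 51 genes. A gene's own counts thus played no part. By all 52 genes, rich barcodes of the E14.5 library labelled knockout were 371 radial glia and 90 intermediate progenitors. Poor ones were 79 and 248. Differences between these gates thus enter the ratios, and their part was not tested. In the E14.5 library labelled knockout, which is the largest, the log2 ratio of rich over poor had a median of 4.52, was 4 or more for 32 genes and under 2 for 8, where the 8 genes with 0 counts in poor barcodes enter at a lower bound of 3 counts. Top2a, the topoisomerase that untangles sister chromatids, gave 7.14 there (6.09 to 8.45), from 1370 counts in rich and 7 in poor barcodes, and 5.91, 6.88 and 7.54 in the other 3 libraries. Mki67, the proliferation antigen that coats mitotic chromosomes, gave 5.74 (5.03 to 6.55), and the kinetochore protein gene Cenpf 5.25 (4.52 to 6.10). The kinetochore motor gene Cenpe gave 5.47 (4.48 to 6.69).

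Genes of the entry kinase group ranged from 0.83 to 6.01. Cdk1 itself gave 6.01 (4.45 to 8.30), with 271 counts in rich and 3 in poor barcodes, and its partner Cks1b 2.31 (1.62 to 3.06). The lowest of the group was G2e3, a ubiquitin ligase gene named for its expression in G2, at 0.83 (0.37 to 1.30). Both exit genes were steep. Cdc20, an activator of the anaphase-promoting complex, gave 5.85 (4.29 to 8.14) and Ube2c, the ubiquitin-conjugating enzyme of that complex, 5.14 (4.15 to 6.37). All 5 checkpoint and passenger genes were at 4 or more, among them the kinase gene Bub1 at 6.72 (4.22 to 12.03) from 148 and 1 counts.

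Chromatin genes spanned the whole range, from 0.44 to 7.14. Hmgb2, a chromatin protein gene with the most counts of the 52 in progenitors, gave 3.57 (3.33 to 3.83), and the condensin subunit gene Smc4 3.05 (2.76 to 3.36). Anp32e, a histone chaperone gene, gave 1.34 (1.10 to 1.58). Cbx5 gave 0.71 (0.47 to 0.95) and Ctcf 0.44 (0.17 to 0.71), the lowest values of the 52, with intervals above 0. In the remaining libraries Ctcf gave 0.93, 0.80 and 0.51, and Cbx5 1.18, 1.65 and 0.40. None of the 3 envelope genes reached 4, and Lbr, the lamin B receptor gene, gave 1.21 (0.61 to 1.86). Of 15 spindle genes 10 were at 4 or more, and Ckap5, which encodes a microtubule polymerase, was lowest at 1.77 (1.38 to 2.19). Rich radial glia also carried more counts before thinning than poor ones, with medians of 8350.5 against 7132.5, 3318 against 2459, 7493 against 5491.5 and 7707 against 5422, and the part of depth in these ratios was not tested.

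**Figure D2:**
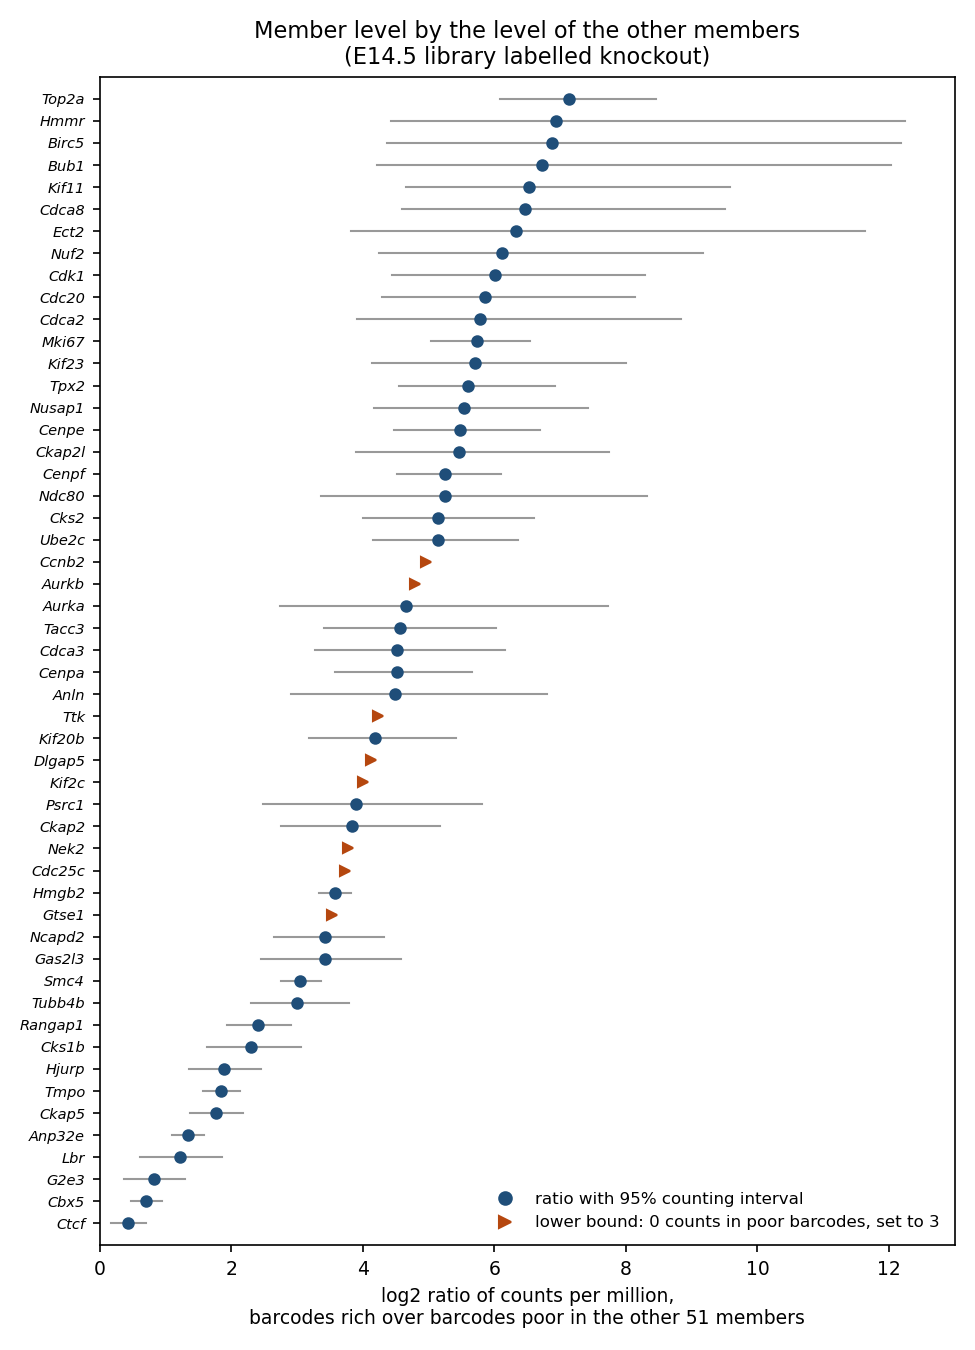
Log2 ratio of each gene's CPM in barcodes rich over barcodes poor in the other 51 genes, radial glia and intermediate progenitors of the E14.5 library labelled knockout. Circles carry 95% counting intervals, triangles are lower bounds for genes with 0 counts in poor barcodes; Top2a at 7.14 and Ctcf at 0.44 mark the range.

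Of rich radial glia, 53.1%, 58.0%, 51.2% and 42.5% also had 8 or more counts of S phase genes, beside 35.6%, 53.8%, 18.7% and 14.3% of all radial glia. In the E14.5 library labelled knockout the 2 shares are close. Barcodes of the largest library with 8 or more S phase counts and under 10 counts of the other members were taken. They were set against barcodes with under 4 S phase counts and under 5 counts of the other members. The first group may thus hold more member counts by its definition, and the part of this in the ratios was not tested. Among genes with 10 or more counts the log2 ratio was highest for the kinesin gene Kif20b, at 3.64 (1.82 to 6.07), then Top2a at 3.40 (2.09 to 4.97), Mki67 at 2.92 (1.80 to 4.18) and Cenpe at 2.90 (0.90 to 5.43), the last from 9 and 3 counts. Hmgb2 was at 979 against 177 CPM, a log2 ratio of 2.47 (2.07 to 2.89), and Smc4 gave 1.42. G2e3 went the other way in this library, at -1.53 (-2.92 to -0.39), from 7 and 52 counts. E14.5 wild type, P0 wild type and P0 knockout gave 111 against 67.8, 0 against 46.0 and 90.9 against 48.1 CPM for G2e3. These came from 1, 0 and 3 counts in the first group, so its direction differed between libraries.

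Between E14.5 and P0 the level of the 52 genes in radial glia was lower at the later age in both labels. The pair labelled knockout also differs in sex and in Tsku. Its E14.5 and P0 libraries had 6719 and 1 counts of Xist, 1 and 1190 of Ddx3y, and 74 and 0 of Tsku. In the wild-type pair Xist had 3 and 1 counts and Ddx3y 496 and 670. Age, sex and Tsku thus cannot be told apart in the pair labelled knockout. The summed level was 14136 CPM in E14.5 wild type and 6799 in P0 wild type, a log2 ratio of -1.06 (-1.16 to -0.95), and 17236 CPM in the E14.5 library labelled knockout and 6382 in P0 knockout, a log2 ratio of -1.43 (-1.49 to -1.38). Over 9 other settings these ranged from -1.17 to -0.54 and from -1.58 to -1.22. The wild-type value of -0.54 comes from all counts of the same barcodes, in which deep barcodes weigh more. Fewer dividing cells and less RNA of these genes per cell cannot be told apart here.

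In wild type, 23 of the 28 genes with 30 or more counts were lower at P0 by 1.5-fold or more and 0 were higher, beside 20% of all genes lower and 23.8% higher. In the pair labelled knockout 48 of 52 were lower and 0 higher, beside 25.8% and 20.8% of all genes. The median log2 ratio of the members was -1.08 and -1.72, against -0.03 and -0.08 for all genes. Ube2c had 350.3 and 386.9 CPM at E14.5 and 42.9 and 40.7 at P0, which gives log2 ratios of -3.03 (-4.17 to -2.00) and -3.25 (-3.98 to -2.60). Both P0 libraries lie far below both E14.5 libraries for this gene. Top2a had 1175 and 1389 CPM at E14.5 and 382 and 270.3 at P0, with ratios of -1.62 and -2.36. Hmgb2 had 1684 and 2161 CPM at E14.5 and 955 and 909 at P0, with smaller ratios of -0.82 and -1.25.

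Nusap1, which bundles spindle microtubules, went from 271 and 262 CPM to 54.6 and 54.9, with ratios of -2.31 (-3.38 to -1.30) and -2.25. Kif11, the kinesin that pushes spindle poles apart, went from 259.9 and 266.4 CPM to 74.1 and 42.7. Mki67 went from 859 and 1161 to 292 and 264 CPM, and Cenpf from 847 and 824 to 253 and 307. Smc4 went from 960.5 and 1176 to 437 and 368 CPM, and Tmpo, a lamina-associated polypeptide gene, from 452 and 695 to 238 and 203. In these 6 genes, too, the 2 P0 values lie below the 2 E14.5 values. Bub1 had 128 counts in the E14.5 library labelled knockout and 2 in P0 knockout, a log2 ratio of -5.26 (-8.32 to -3.38), while the wild-type pair had 5 and 5 counts, 56.5 and 19.5 CPM. Ect2, the cytokinesis exchange factor gene, went from 117 to 14.2 CPM in the pair labelled knockout, a ratio of -3.04 (-4.39 to -1.94), from 96 and 7 counts. The spindle matrix gene Tpx2 went from 316 and 453 to 156 and 83.3 CPM. Cenpe went from 373 and 501 to 140 and 119.9 CPM, with ratios of -1.41 and -2.06.

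The highest ratios belonged to Anp32e, Hjurp and Cdk1 in wild type and to Tubb4b, Cbx5 and Anp32e in the pair labelled knockout. Anp32e had 565 and 698 CPM at E14.5 and 612 and 565 at P0, with ratios of 0.12 (-0.35 to 0.60) and -0.31 (-0.52 to -0.10). Hjurp, the chaperone gene of centromeric histone, gave -0.15 (-0.96 to 0.72) in wild type and -0.94 (-1.41 to -0.49) in the other pair. Cdk1 gave -0.33 (-1.31 to 0.73), from 13 and 30 counts, and -1.87 (-2.41 to -1.36). For both the wild-type interval includes 0 and the other lies below it. Cbx5 had 678 and 556 CPM at E14.5 and 472 and 526 at P0. It gave -0.52 (-0.98 to -0.05) in wild type and -0.08 (-0.30 to 0.14) in the pair labelled knockout, and with 750 counts per barcode the wild-type value turned to 0.13. Tubb4b, a beta-tubulin gene, had 328 and 231 CPM at E14.5 and 218 and 246 at P0, so its ages overlap. Ctcf had 441 and 381 CPM at E14.5 and 222 and 239.8 at P0, and its wild-type ratio of -0.99 turned to 0.047 at 750 counts per barcode. Ckap5 had 373 and 328 CPM at E14.5 and 285 and 242 at P0. In neuronal barcodes Anp32e had 249.5, 236, 243 and 269.6 CPM and Tubb4b 105, 65.9, 89.1 and 99.6. S phase genes were lower at P0 too, with summed log2 ratios of -0.68 and -1.48, and the other G2 and mitosis genes gave -1.21 and -1.65. The radial glia markers of the gate were higher at P0, as given above, and the part of astrocytes in the lower level was not tested.

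**Figure D3:**
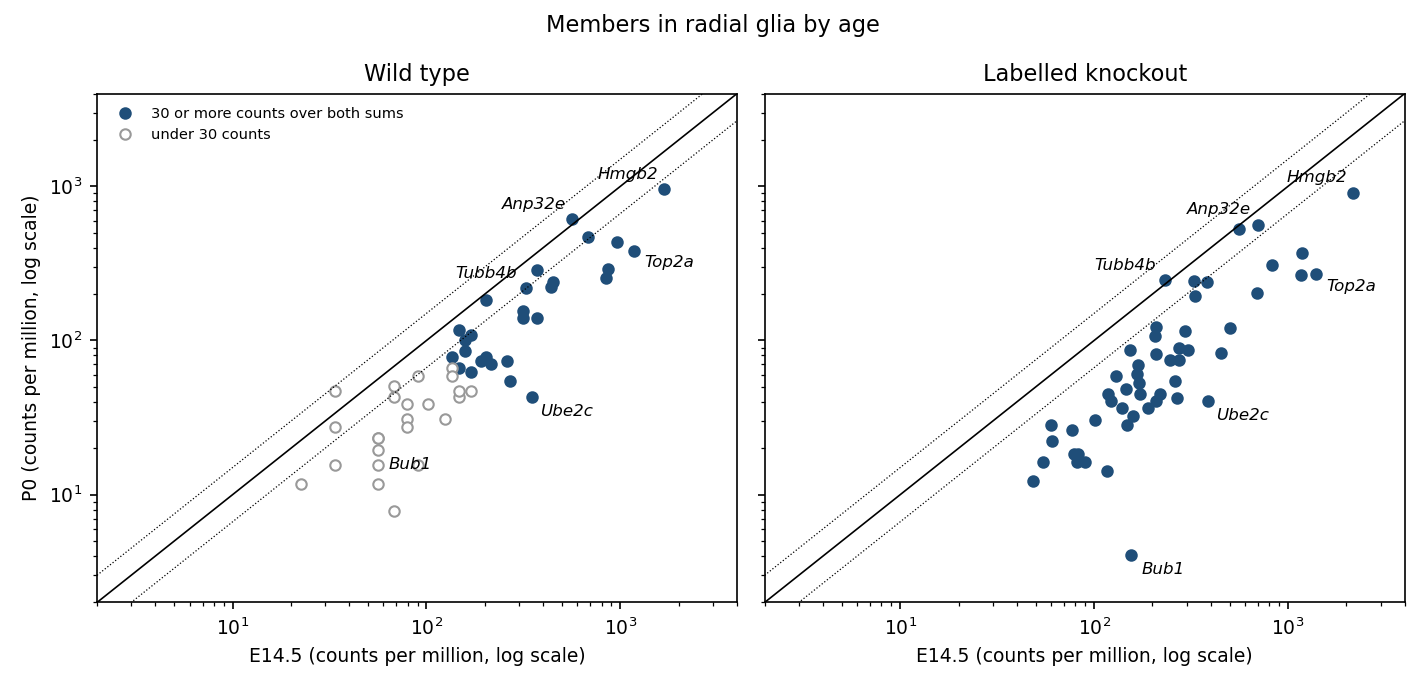
Level of each gene in radial glia at P0 against E14.5 (CPM, log scales), wild type left and labelled knockout right. The solid line marks equality and dotted lines 1.5-fold; filled points have 30 or more counts over both libraries, and most lie below the lower dotted line.

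Against wild type, the E14.5 library labelled knockout had a higher summed level in radial glia, by a log2 ratio of 0.29 (0.20 to 0.37), with a range of 0.24 to 0.53 over 9 other settings. Of 52 genes, 15 were higher by 1.5-fold and 0 lower, beside 27.1% and 14.5% of all genes, and the median was 0.31 against 0.13 for all genes. The share of members higher is thus near that of all genes. Highest were the cytokinesis gene Anln at 1.99 (0.09 to 5.07), from 2 and 74 counts, and Aurkb, the passenger kinase, at 1.86 (0.27 to 4.16). Bub1 followed at 1.46 (0.20 to 3.11). Lowest were Tubb4b at -0.50 (-1.07 to 0.11), the survivin gene Birc5 at -0.33 and the centrosome kinase gene Nek2 at -0.31, whose intervals include 0. S phase genes were higher by 0.59, with 20 of 39 past the fold. Sex, depth and the label cannot be told apart in this pair.

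At P0 the summed ratio of knockout over wild type was -0.091 (-0.18 to -0.01) in radial glia, and a second random draw turned it to 0.013. Of 37 genes 4 were higher and 5 lower, beside 12.9% and 7.92% of all genes. G2e3 was highest at 1.06 (-0.27 to 2.64), then the centromeric histone gene Cenpa at 0.99 and Cdc20 at 0.95. Cenpa gave -0.072 in the second draw and -0.18 at 3000 counts per barcode. The kinetochore gene Nuf2 was lowest, from 85.8 to 36.6 CPM, a ratio of -1.23 (-2.21 to -0.26), followed by Tpx2 at -0.90 (-1.57 to -0.24) and Kif11 at -0.80 (-1.76 to 0.18).

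Intermediate progenitors gave -0.02 (-0.13 to 0.09) at E14.5, ranging from -0.17 to 0.38 over 8 other settings, and 0.23 (0.09 to 0.37) at P0, ranging from 0.017 to 0.33. At E14.5, 6 of 40 genes were higher and 3 lower, beside 21.9% and 11.2% of all genes. Tubb4b stood lowest, at 199 against 61.5 CPM, a ratio of -1.69 (-2.46 to -0.89), followed by Birc5 at -0.87 (-1.99 to 0.39) and Cenpf at -0.83 (-1.33 to -0.29), which turned to 0.23 at 3000 counts. Highest were Cdca2, a phosphatase-targeting gene, at 2.30 from 1 and 29 counts, Kif23 at 1.31 and Ckap2l at 0.84, whose intervals include 0. Dlx-positive barcodes gave 0.06 (-0.02 to 0.14) at E14.5, ranging from 0.046 to 0.53 over 9 other settings, with 10 of 50 higher and 1 lower, beside 21% and 11.1% of all genes, and -0.21 (-0.30 to -0.12) at P0, ranging from -0.40 to -0.19, with 0 of 34 higher and 6 lower, beside 9.82% and 9.35%. Ube2c was the lowest of those at P0, at 219 against 119 CPM, and turned to 0.090 at 750 counts per barcode. Ckap2l at -0.84 and Nuf2 at -0.67 followed, and Cks2 at 0.35, Ctcf at 0.31 and Ckap2 at 0.27 were highest. Anln was the highest in the E14.5 Dlx-positive pair at 2.86 (0.31 to 8.19), from 1 and 52 counts, and turned to -0.070 in a second draw. Gas2l3 at 1.55 and Aurka at 1.19 came next, and Tubb4b at -0.61, Ncapd2 at -0.42 and Mki67 at -0.39 were lowest, the last turning to 0.20 at 3000 counts. Olig-positive barcodes at P0 gave -0.11 (-0.23 to 0.01), ranging from -0.47 to 0.049.

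Gate differences could be tested, since each animal gives a sum of raw counts per gate. With edgeR's quasi-likelihood test, Benjamini-Hochberg adjustment over 12080 genes and the library as a block, 18 sums left 10 residual degrees of freedom. Against radial glia, neuronal barcodes had 50 of the 52 genes lower and 0 higher (0 at an unadjusted p under 0.05), beside 30.4% and 26.5% of all genes, with a median log2 difference of -3.86. The steepest were Cdca3, a mitotic entry gene, at -4.76 (SE 0.37, adjusted p 5.66e-08), Bub1 at -4.73 and Ect2 at -4.68. Aurkb at -4.68, Top2a at -4.58, Nek2 at -4.55, Gtse1 at -4.46, Mki67 at -4.46, Cenpf at -4.45 and Cdk1 at -4.39 followed. The 2 genes not called were Ctcf at 0.22 (adjusted p 0.0851) and G2e3 at 0.08 (adjusted p 0.821). Cbx5 passed at -0.29 (adjusted p 0.00957) and kept its call in 5 of 10 alternatives, where the adjusted p ranged up to 0.199.

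Intermediate progenitors had 19 genes lower than radial glia and 0 higher (0 at an unadjusted p under 0.05), beside 17.7% and 16% of all genes. Of 52 estimates 50 were below 0, with a median of -0.54 against -0.03. In library order, poor barcodes of the intermediate progenitor gate had neuronal markers at 5413, 5960, 6381 and 6539 CPM. Rich ones had 2667, 3556, 3400 and 2692 CPM. The gate thus also takes barcodes with neuronal transcripts, and their part in the lower level was not tested. Ckap2, a spindle-associated gene, fell most, by 1.06 on the log2 scale (SE 0.21, adjusted p 7.17e-04 in the edgeR test), with 169.5, 153.3, 109.2 and 87.4 CPM in radial glia and 51.9, 44.0, 35.6 and 52.3 in intermediate progenitors. All 4 libraries show this direction. Nuf2 gave -1.04, the passenger complex gene Cdca8 -1.02, Tubb4b -0.99, and the spindle gene Dlgap5 -0.97. Cdca3 gave -0.91, Cdk1 -0.89, Nusap1 -0.88, Kif11 -0.85 and the cyclin gene Ccnb2 -0.83. Ckap2, Smc4 (-0.81) and Tubb4b stayed called in 10 of 10 alternatives. The count fell to 4 without the E14.5 library labelled knockout, to 7 without P0 wild type and to 9 without E14.5 wild type, and was 23 without P0 knockout. Top2a at -0.59 (adjusted p 0.142), Mki67 at -0.53 and Cenpf at -0.81 did not pass.

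With both ages in 1 contrast, Dlx-positive barcodes had 3 of the genes higher than radial glia and 1 lower, beside 20.5% and 21.2% of all genes. The median was 0.14. At equal depth their summed level at E14.5 was 10120 CPM in wild type and 10527 in the library labelled knockout, against 14136 and 17236 in radial glia. At P0 it was 11075 in wild type and 9561 in knockout, against 6799 and 6382. The direction thus differed between the ages, and this change was not tested. The condensin subunit gene Ncapd2 was higher by 0.73 (SE 0.23, adjusted p 0.0197 in the edgeR test), Ctcf by 0.61 and Anp32e by 0.37, and Tubb4b was lower by 0.59 on the log2 scale. Ctcf kept its call in 9 of 10 alternatives, Ncapd2 in 7, Tubb4b in 5 and Anp32e in 4. Without the E14.5 library labelled knockout 18 were higher. Olig-positive barcodes at P0 had 5 lower and 0 higher (0 at an unadjusted p under 0.05), beside 2.4% and 3.38% of all genes, with 51 of 52 below 0, a median of -0.81 and 32 lower at an unadjusted p under 0.05. These were Cdca2 at -1.65, the phosphatase gene Cdc25c at -1.49, Smc4 at -1.07, Ckap2 at -1.01 and Ckap5 at -0.64. That count fell to 0 without either P0 library, which leaves 1 Olig-positive sum, was 1 (Ckap5) without E14.5 wild type and 9 without the E14.5 library labelled knockout. With every barcode thinned to 1500 counts none of the 5 was called, with adjusted p from 0.0526 to 0.282, and Tubb4b was the only member called. That fit takes radial glia from E14.5 libraries too. In a fit of the P0 libraries alone (4 residual degrees of freedom), added after seeing the data, 12 of 52 were lower and 0 higher (0 at an unadjusted p under 0.05), beside 7.56% and 5.76% of all genes, and the median was -0.47. The 5 genes kept their calls there, at -1.40 for Cdca2, -1.20 for Cdc25c, -0.65 for Smc4, -0.71 for Ckap2 and -0.67 for Ckap5. At equal depth the summed level was 5954 and 5517 CPM in Olig-positive barcodes of P0 wild type and knockout, against 6799 and 6382 in radial glia, and Ckap5 had 119 and 239.7 CPM against 285 and 242. For Ckap5 the knockout library thus shows little difference at equal depth.

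The difference between intermediate progenitors and radial glia shifted with age for some of the genes. In a fit with a gate-by-age term (7 residual degrees of freedom), 5 genes had a higher difference at P0 and 0 a lower one (0 at an unadjusted p under 0.05), beside 1.07% and 2.33% of all genes, and 51 of 52 estimates were above 0, with 29 at an unadjusted p under 0.05. The median change was 0.85, against -0.07 for all genes. S phase genes had 43 of 43 estimates above 0 with a median of 1.13, and the other G2 and mitosis genes 39 of 40 with 1.07. The lower radial glia level at P0, given above, enters this change. Cdca3 changed by 1.67 (SE 0.42, adjusted p 0.0374 in the edgeR test), and the midbody kinesin gene Kif23 by 1.65 (SE 0.27, adjusted p 8.67e-04), for which radial glia had 169.5, 219, 46.8 and 44.7 CPM and intermediate progenitors 26.0, 64.5, 124 and 98.0. Kif23 was thus higher in radial glia in both E14.5 libraries and higher in intermediate progenitors in both P0 libraries. These levels of Kif23 rest on few counts, 15, 180, 12 and 22 in radial glia and 3, 44, 14 and 15 in intermediate progenitors. The kinetochore gene Ndc80 changed by 1.32, Tmpo by 0.95 and Smc4 by 0.68. Kif23 kept its call in 9 of 10 alternatives, Tmpo in 7, Smc4 in 6, Cdca3 in 5 and Ndc80 in 3. Without the E14.5 library labelled knockout 0 were called, without P0 knockout 1, and without E14.5 wild type 18. The 2 animals of each age carry different labels, and radial glia at P0 include astrocytes, whose part in the change was not tested.

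**Figure D4:**
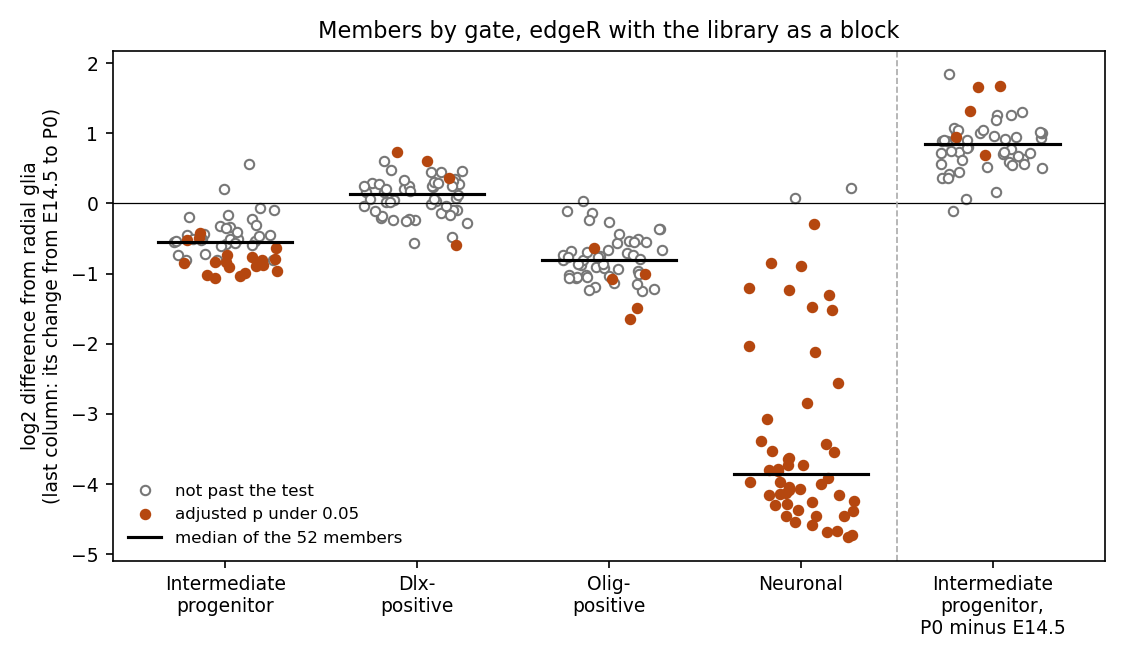
Log2 difference of each of the 52 genes from radial glia for 4 gates, and its change from E14.5 to P0 for intermediate progenitors, from edgeR with the library as a block. Filled points have an adjusted p under 0.05 and bars are medians; the neuronal median is -3.86 and the intermediate progenitor median -0.54.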

How the data were processed

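Per the labels' protocols, single cells of mouse cerebral cortex were captured on beads, and the authors deposited whole-number counts per gene and barcode with no scaling. The submitters' processing notes name FastQC 0.12.1, Seurat 5, R 4.3.2 and the build GRCm39, with no role for any. No aligner, counter, strand setting or collapsing of molecules is given in the sources used here, so counts were taken as independent. Features named as copies of a member held few counts, 96 for Cks1brt and 0 to 5 for the others, apart from Ckap2l, itself a member; how the counting split reads between them is uncertain.

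Barcodes under 1500 counts, under 300 genes or over 10% mitochondrial counts were left out, and the others were thinned to 1500 counts. The draw was seeded per barcode, a change made after a first pass of results in which small ratios took other values. Gates were set in order from marker sums: Olig1 with Olig2 at 2 or more, 5 Dlx genes at 2 or more, Eomes present and Eomes, Neurog1, Neurog2 and Sstr2 at 2 or more, then the higher of the radial glia and neuronal sums at 6 or more. Barcodes with 3 or more counts of another cell kind, or with both Olig and Dlx, were set aside. Shares have Clopper-Pearson and ratios conditional binomial 95% intervals. A gene counted as past the fold with 30 or more counts over both sums and a ratio of 1.5-fold, and a sum of 0 was set to 3 counts over the gate.

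Gate contrasts were tested with edgeR 4.0.16 (R 4.3.3, limma 3.58.1) on raw counts summed per library and gate of 20 or more barcodes, with TMM scaling, the library as a block and an adjusted p under 0.05; DESeq2 1.42.0 was an alternative. The block comes from the design, since gates of a library are the same animal. The edgeR script was tested on simulated data. The remaining steps used scanpy 1.11.5, scipy 1.17.1, numpy 2.4.6 and pandas 2.3.3 in Python 3.11.15, with plots from matplotlib 3.10.9. Promoter sequences are RefSeq's on GRCm38.p6; the count files hold no coordinates.

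The 52 genes, the gates and the other lists were chosen with earlier results of these data known. Named were the 12 genes with the most counts in progenitors, the 3 highest and 3 lowest per comparison, and up to 10 called genes a direction. Single-gene ratios and fold counts are given for 7 comparisons only, which was decided after values were seen and is narrower than that rule; ratios between neuronal sums are not reported. Genes shown for their place among roles, or for the S phase split, were also picked after their values were seen. Leaving out barcodes whose sequence recurs in another library, and fitting Olig-positive barcodes within the P0 libraries alone, were alternatives added after seeing the data.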

Additional observations from a re-analysis of the deposited data

Results flagged for a closer look

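The change from E14.5 to P0 in the difference between intermediate progenitors and radial glia passed the test of that change itself (edgeR with the library as a block) for 5 genes. The log2 changes were 1.67 for Cdca3, 1.65 for Kif23, 1.32 for Ndc80, 0.95 for Tmpo and 0.68 for Smc4. Without the E14.5 library labelled knockout none of the 5 was called.

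The summed level in radial glia was higher by 0.29 on the log2 scale in the E14.5 library labelled knockout than in its wild type, and at P0 the same ratio was -0.091, the opposite sign. In Dlx-positive barcodes the ratio of P0 over E14.5 was 0.13 in wild type and -0.14 in the libraries labelled knockout. Each is a ratio of 1 library to 1 library, and neither difference was tested.

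Of barcodes that entered no comparison, most sets carried the 52 genes above the level of the neuronal barcodes of their library, 2138, 2488, 2270 and 2180 CPM. Barcodes set aside as other cell kinds had 4619 CPM in E14.5 wild type, 6316 in the E14.5 library labelled knockout and 3842 in P0 knockout, while in P0 wild type their 2692 CPM (2343 to 3078) overlapped the neuronal 2270 (2163 to 2381). Barcodes that met no gate had 8545, 12726, 12389 and 10952 CPM in E14.5 wild type, E14.5 labelled knockout, P0 wild type and P0 knockout.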

How the results depend on the processing

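No paired analysis was possible because each genotype and age is 1 library, so ratios between libraries have no replicate block. The gate tests keep the library as a block. With no replicate block and age in its place, members called lower in Dlx-positive barcodes went to 0 and those with a higher age change to 1. The lower radial glia level at P0, in both labels, and the higher level in the E14.5 library labelled knockout kept their sign in 9 of 9 settings. Rich barcodes are few and counts cluster in them, so counting intervals understate the error of small ratios. Depth limits the share of rich barcodes, which rises where all counts are used, neurons included. A fit without 1 library leaves 1 library at an age and assumes that it varies like the others. The cause of the changes below was not tested.

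Summed log2 ratios are listed as labelled knockout over wild type at E14.5 and P0, then P0 over E14.5 in wild type and labelled knockout, and values not listed moved less. At 750 counts per barcode the last ratio of Dlx-positive barcodes was -0.37, Ube2c in Dlx-positive barcodes at P0 was 0.090, and the wild-type age ratios of Cbx5 and Ctcf in radial glia were 0.13 and 0.047. At 3000 counts radial glia gave 0.46, -0.22, -0.90 and -1.58, intermediate progenitors 0.38, 0.017, -0.015 and -0.38, Dlx-positive barcodes 0.53, 0.34 (wild-type age) and -0.45 (labelled knockout age), and Olig-positive barcodes 0.049; Cenpa in radial glia at P0 was -0.18, Cenpf in E14.5 intermediate progenitors 0.23 and Mki67 in E14.5 Dlx-positive barcodes 0.20. With all counts radial glia gave 0.53, -0.54 and -1.22 (E14.5 and both ages), intermediate progenitors -0.17 (E14.5) and 0.19 (labelled knockout age), Dlx-positive barcodes -0.037 (labelled knockout age) and Olig-positive barcodes -0.23. With gates of 3 counts the P0 ratio of intermediate progenitors was 0.070, Dlx-positive barcodes gave 0.22, -0.40, 0.36 and -0.27 and Olig-positive barcodes -0.47. A second seed gave 0.013 for radial glia at P0, 0.20 and 0.28 for Dlx-positive barcodes at E14.5 and for wild-type age, and -0.072 for Cenpa and 0.19 for Top2a in radial glia at P0, and -0.070 for Anln in E14.5 Dlx-positive barcodes. Without the highest doublet scores the age ratios of radial glia were -1.17 and -1.50. With TMM scaling radial glia gave 0.37 at E14.5 and -1.53 for labelled knockout age, where intermediate progenitors gave -0.10 and Dlx-positive barcodes -0.24.

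With all counts the share of rich barcodes, in the order E14.5 wild type, E14.5 labelled knockout, P0 wild type and P0 knockout, was 94.9%, 81.0%, 75.4% and 78.4% in radial glia, 80.5%, 42.9%, 57.3% and 67.6% in intermediate progenitors, 77%, 45.3%, 63.5% and 65.0% in Dlx-positive barcodes, 71.3% and 72.4% in P0 Olig-positive barcodes, and 76.8%, 26.8%, 47.6% and 49.5% in neuronal barcodes. With 15 or more counts it was 55.8% in radial glia, 14.7% in intermediate progenitors and 28.0% in Dlx-positive barcodes of the E14.5 library labelled knockout, and 13.9% and 13.3% in P0 Olig-positive barcodes. Without the highest doublet scores it was 1.501% in neuronal barcodes of that E14.5 library.

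At 2-fold, 1 member was higher and 1 lower in radial glia at P0, 15 lower with wild-type age, 2 higher and 1 lower in E14.5 intermediate progenitors, 4 higher and 0 lower in E14.5 Dlx-positive barcodes and 0 lower at P0. With 10 or more counts, 8 were lower in radial glia at P0, 39 with wild-type age and 8 in E14.5 intermediate progenitors, and 2 were higher and 15 lower in P0 Dlx-positive barcodes. By test, DESeq2 called 2 lower in Dlx-positive and 8 in Olig-positive barcodes, and its size factors in edgeR called 2 lower in Dlx-positive ones. With no filter, 34 were lower and 1 higher in intermediate progenitors, 2 lower in Dlx-positive, 33 lower in Olig-positive barcodes, and 13 had a higher age change. With gates of 3 counts these were 32 lower, 0 lower, 13 lower and 2. In the P0 libraries alone 12 were lower in Olig-positive barcodes. Thinned counts gave 1 higher in Dlx-positive, 1 lower in Olig-positive barcodes (Tubb4b, not among the 5) and 15 with a higher age change. Leaving out each library gave 4 to 23 lower and 0 to 1 higher in intermediate progenitors, 0 to 2 lower and 1 to 18 higher in Dlx-positive, 0 to 9 lower in Olig-positive, 49 to 50 lower and 0 to 1 higher in neuronal barcodes, and 0 to 18 with a higher age change.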

Other observations

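Among barcodes set aside as other cell kinds in the E14.5 library labelled knockout, microglia had 10681 CPM of the 52 genes, with 44.7% of 47 barcodes rich, and mural barcodes had 12921 CPM, with 47.6% of 21 rich. Endothelial barcodes had 6600.0 CPM with 34% of 50 rich, and choroid plexus barcodes 3357 CPM with 8.04% of 112 rich. At P0, microglia had 2455 CPM in wild type and 4389 in knockout. Endothelial barcodes at P0 had 1933 (1468 to 2499) and 2033 (1555 to 2612), intervals that include the neuronal levels of 2270 and 2180.

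Barcodes positive for both Olig and Dlx genes were few. They numbered 6, 3 and 12 in the E14.5 library labelled knockout, P0 wild type and P0 knockout, with 25222, 26889 and 4833 CPM of the 52 genes. Of the 68 barcodes with no gate in the E14.5 library labelled knockout, 54.4% were rich, and their S phase genes summed to 5608 CPM.

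Genes of hereditary microcephaly, which encode centrosome and spindle proteins, overlap in function with the 52 but were listed apart. Of 12, 2 were lower in intermediate progenitors than in radial glia and 1 was higher by the same edgeR test, and 9 were lower in neuronal barcodes. Of all genes 17.7% were lower and 16% higher in intermediate progenitors and 30.4% lower in neuronal barcodes, so the first share is near that of all genes.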
